A study of Homo sapiens with 26 samples.

Results

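The loci described here are 5 genes for long noncoding RNAs that have been linked to p53, of 64486 genes in the annotation. They were taken by name (MIR34AHG, NEAT1, MALAT1, LINC-PINT and TP53TG1), and each locus was the gene body with 50 kb to each side. ChIP-seq had been done in HCT116, a line of colorectal cancer cells whose p53 is wild type, for H3K27ac (acetylation of lysine 27 on histone H3, found at promoters and enhancers in use) and for H3K4me1 (monomethylation of lysine 4, found at enhancers both in use and poised). Parental cells (WT) had received the vehicle DMSO (0 h) or Nutlin-3a for 1 h or 10 h. Nutlin-3a blocks the binding of p53 to its inhibitor HDM2. H3K27ac had also been profiled at 0 h (DMSO) and at 1 h of Nutlin-3a in HCT116 cells that the labels mark RAD21, the name of a cohesin subunit. In these cells RAD21 carries a degron, per the study's methods, and was degraded with an auxin analogue before the drug was added. That step is not in the labels, so the cells are called the RAD21 line. Each of the 8 groups held 2 libraries with 1 peak list each, which gave 10 H3K27ac and 6 H3K4me1 lists. Peaks of a mark that overlapped in any of its lists were merged into regions, and the 5 loci held 71 of 87608 H3K27ac regions and 61 of 110276 H3K4me1 regions.

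Long noncoding RNAs are transcripts without a protein product, and several are transcribed when p53 binds a response element near their start. MIR34AHG is the host transcript of the microRNA miR-34a, which represses mRNAs of cell cycle and survival genes. NEAT1 is the RNA scaffold of nuclear paraspeckles, MALAT1 is an abundant RNA of nuclear speckles, LINC-PINT is a p53-induced RNA linked to Polycomb repression, and TP53TG1 was named as a p53 target gene.

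The p53 consensus (2 adjoining decamers of 10 bases with no spacer, 20 bases in all) was looked for in the 5 windows. It reads the same on both strands. The C and G at the core of each decamer had to match, with at most 1 mismatch at the other bases. Whether the H3K27ac changes described afterwards depend on such sites was not tested. The sequences around the sites that lay in an H3K27ac region are given. Each is 300 bases of GRCh37 read on the strand of the gene, with the matched 20 bases in capitals.
MIR34AHG, chr1:9242062-9242361, minus strand: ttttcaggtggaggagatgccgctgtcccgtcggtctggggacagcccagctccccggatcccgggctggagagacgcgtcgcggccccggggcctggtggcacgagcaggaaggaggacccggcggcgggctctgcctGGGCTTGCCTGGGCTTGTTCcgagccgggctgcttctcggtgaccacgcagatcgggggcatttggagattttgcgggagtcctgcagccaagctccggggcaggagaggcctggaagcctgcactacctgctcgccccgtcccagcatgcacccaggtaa
NEAT1, chr11:65188650-65188949, plus strand: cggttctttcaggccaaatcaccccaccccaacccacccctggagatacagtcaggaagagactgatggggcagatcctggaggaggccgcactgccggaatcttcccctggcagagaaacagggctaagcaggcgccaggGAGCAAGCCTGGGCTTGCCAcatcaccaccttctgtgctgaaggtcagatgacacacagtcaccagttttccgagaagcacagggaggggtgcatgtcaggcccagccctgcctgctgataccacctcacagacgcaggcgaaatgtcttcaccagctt
TP53TG1, chr7:86960299-86960598, minus strand: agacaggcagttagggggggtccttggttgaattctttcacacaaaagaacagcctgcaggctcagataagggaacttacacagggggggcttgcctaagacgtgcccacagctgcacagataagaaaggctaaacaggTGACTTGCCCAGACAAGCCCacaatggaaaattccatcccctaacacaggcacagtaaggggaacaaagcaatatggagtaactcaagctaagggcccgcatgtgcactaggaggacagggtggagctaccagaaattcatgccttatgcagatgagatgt
The MIR34AHG site (chr1:9242203-9242222) had 0 mismatches and lay in an exon, 229 bases downstream of the start site at 9242451. At NEAT1 the site (chr11:65188791-65188810) had 1 mismatch and lay 1454 bases upstream of the gene's start, in its flank. TP53TG1 held a site with 1 mismatch in an intron (chr7:86960440-86960459), 14314 bases downstream of its start site at 86974773, and another with 1 mismatch in an exon (chr7:86952512-86952531) under no H3K27ac or H3K4me1 region. The MALAT1 and LINC-PINT windows held 0 sites at this setting, which says only that these letters were not found there. Such a site lay in 705 of 87608 H3K27ac regions (0.805%) and in 954 of 110276 H3K4me1 regions (0.865%). Among H3K27ac regions within 20% of the same length it lay in 56 of 5565 for MIR34AHG (1.01%), in 10 of 338 for NEAT1 (2.96%) and in 135 of 10026 for TP53TG1 (1.35%).

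The mature products of the miR-34a hairpin (RefSeq, GRCh38.p14), with the seed (bases 2 to 8) in capitals, show what the MIR34AHG transcript carries.
hsa-miR-34a-5p: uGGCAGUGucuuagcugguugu
hsa-miR-34a-3p: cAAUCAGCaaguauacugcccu
The seeds of the 5p and 3p products differ. On GRCh37 the hairpin lies at chr1:9211727-9211836, inside the host gene and 30615 bases downstream of the start site beside the p53 site.

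The peak lists differed in a way that touches most results. The 2 WT lists at 0 h and the first WT list at 1 h, all for H3K27ac, have peak names without the word input, and they held 31640 to 33976 peaks over 30.7 to 31.9 Mb. The other 7 H3K27ac lists have it in their peak names, and they held 39092 to 49127 peaks over 49.1 to 66.6 Mb. All 6 H3K4me1 lists have it and held 84492 to 92943 peaks. WT at 10 h and 0 h therefore differ in the name form as well as in treatment, and so do the RAD21 line and WT at 0 h, so that the form and the comparison cannot be told apart except through the 2 WT lists at 1 h, which differ in form. Some peak names also carry other replicate numbers than the labels, and those of the second RAD21 list at 0 h name 2 replicates. Of the 71 regions, 41 were called in lists with the word only and 2 in lists without it only. There are 7 H3K27ac lists with the word and 3 without, and 24 of the 71 regions were called in 1 list. The same shares over all H3K27ac regions were not counted, so these counts are not read as particular to the loci. The lists carry no read counts, and depth was not weighed here. The study tabulates statistics of its ChIP-seq libraries, which were not used for this. As a check of the cell type, 7 of 10 promoters of colorectal epithelial genes were under H3K27ac in every list and 3 in none, those of TSPAN8, LGALS4 and CDX1. None of the 4 blood and 4 fibroblast marker promoters was covered in any list, nor were CDH5 and KDR of endothelium, where PECAM1 was not matched in the annotation. Of 2 neuronal markers, SYT1 was covered in every list.

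Strength is given as the percentile of a region by −log10 p among the 18757 H3K27ac regions that were called in all 10 lists, 100 being the strongest, and a change is the difference between group means of the normal scores of those ranks, in units of 1 SD of the scores. Changes were tested with limma over all 18757 regions, of which 22 lie at these loci, and over 60476 H3K4me1 regions, of which 36 do. None of the 22 lies in the TP53TG1 window, whose only H3K27ac region was not called in every list. In bulk cells, more cells with the mark and more mark per cell cannot be told apart.

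The MIR34AHG promoter had the largest rise at 10 h among the 22 regions. Its H3K27ac region (chr1:9240240-9243580, 3341 bp) covers the start site at 9242451, the p53 site and the promoter of the antisense gene LNCTAM34A. In WT it stood at the percentiles 70.6 and 63.8 at 0 h, 67.2 and 84.0 at 1 h, and 99.4 and 99.0 at 10 h. The RAD21 line held 77.2 and 67.6 at 0 h, with 77.0 and 79.2 at 1 h. Both 10 h lists were above each of the other 8, whereas the range at 1 h overlapped that at 0 h in both lines. The 10 h lists were higher by 1.96 (SE 0.17, limma adjusted p = 3.79e-05) against 0 h and by 1.69 (adjusted p = 2.47e-05) against 1 h. With the name form as a term the rise against 0 h was 1.41 (adjusted p = 0.00012), and leaving out any 1 list it was 1.86 to 2.05.

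At 1 h the MIR34AHG promoter changed by 0.27 in WT (adjusted p = 0.242) and by 0.18 in the RAD21 line (adjusted p = 0.464). The difference between the lines in that change was -0.095 (adjusted p = 0.808). The WT value hung on the lists: it was 0.54 without the first 1 h list, the one without the word input, and -0.0024 without the second. For the value of 0.54, the 1 h list left in differs in name form from both lists at 0 h. The lines differed by 0.15 at 0 h (adjusted p = 0.502) and by 0.058 at 1 h (adjusted p = 0.855).

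The authors' fold of the strongest MIR34AHG promoter peak over its local background was 8.44 and 7.97 at 0 h, 7.28 and 40.8 at 1 h, and 156 and 135 at 10 h in WT. In the RAD21 line it was 38.6 and 25.5 at 0 h, and 58.9 and 84.7 at 1 h. Folds depend on the control and the depth of each library. The lists without the word input had the 3 lowest folds, and among the others the 10 h lists had the highest. That peak was 1442 and 1435 bp long at 0 h, 1535 and 2962 bp at 1 h, and 2978 and 2853 bp at 10 h. Its summit lay 203 to 234 bases downstream of the start site in the 3 lists without the word, 345 and 356 bases at 10 h and 122 to 226 bases in the other 5. Measured from the centre of the p53 site, it was 6 and 5 bases away at 0 h, 36 and 61 at 1 h, and 106 and 117 at 10 h, so the strongest point was farther from the site in the 10 h lists than at 0 h. The RAD21 line had 87 and 117 bases at 0 h and 18 and 13 at 1 h.

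**Figure D1:**
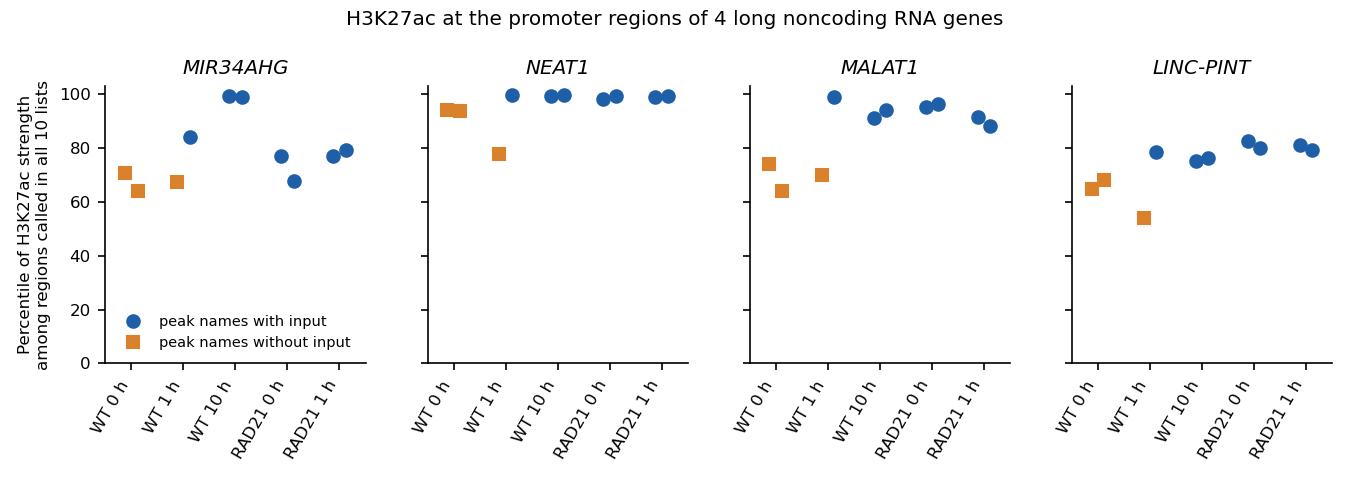
H3K27ac strength of the promoter region of each noncoding RNA gene in the 10 lists, as a percentile (vertical axis, 0 to 100) among the 18757 regions called in every list. Points are single lists, squares for peak names without the word input and circles for those with it. The MIR34AHG promoter is at 99.4 and 99.0 at 10 h, above each of its other lists, while at NEAT1, MALAT1 and LINC-PINT the lists part by name form.

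H3K4me1 over the same promoter (chr1:9239029-9244990, 5962 bp) was strong at every time among the regions called in all 6 lists. Its percentiles were 94.7 and 95.5 at 0 h, 94.7 and 97.5 at 1 h, and 98.6 and 96.8 at 10 h. The 10 h lists were both above those at 0 h, by 0.36 (SE 0.17), which did not pass the test (limma adjusted p = 0.574, unadjusted p = 0.0493). The other start site of MIR34AHG, at 9258762, had no H3K27ac over its promoter in any list.

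The remaining MIR34AHG window held few acetylated regions and many with H3K4me1 alone. Of its 6 H3K27ac regions, 4 were called in every list, and of its 24 H3K4me1 regions, 14 were. An intronic region (chr1:9223163-9225358) ranged from the percentile 8.79 to 35.6 over the lists. The promoter of H6PD, a glucose-6-phosphate dehydrogenase of the endoplasmic reticulum, in the flank (chr1:9294170-9296053) stood at 90.9 and 86.3 at 0 h and at 83.4 and 76.9 at 10 h, where the 10 h lists were the lower ones, a difference of -0.36 that did not pass the test (adjusted p = 0.0731). Active enhancers, taken as non-promoter regions with both marks in both lists of a time, numbered 2 at 0 h, 2 at 1 h and 2 at 10 h, and regions with H3K4me1 and no H3K27ac numbered 10, 11 and 12. H3K4me1 covered 25.78% and 24.97% of the gene body at 0 h, 37.7% and 30.2% at 1 h and 32.2% and 34.9% at 10 h, so the treated lists were all above those at 0 h. H3K27ac covered 4.87% to 5.72% of it in the lists without the word input and 5.75% to 10.1% in the others.

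**Figure D2:**
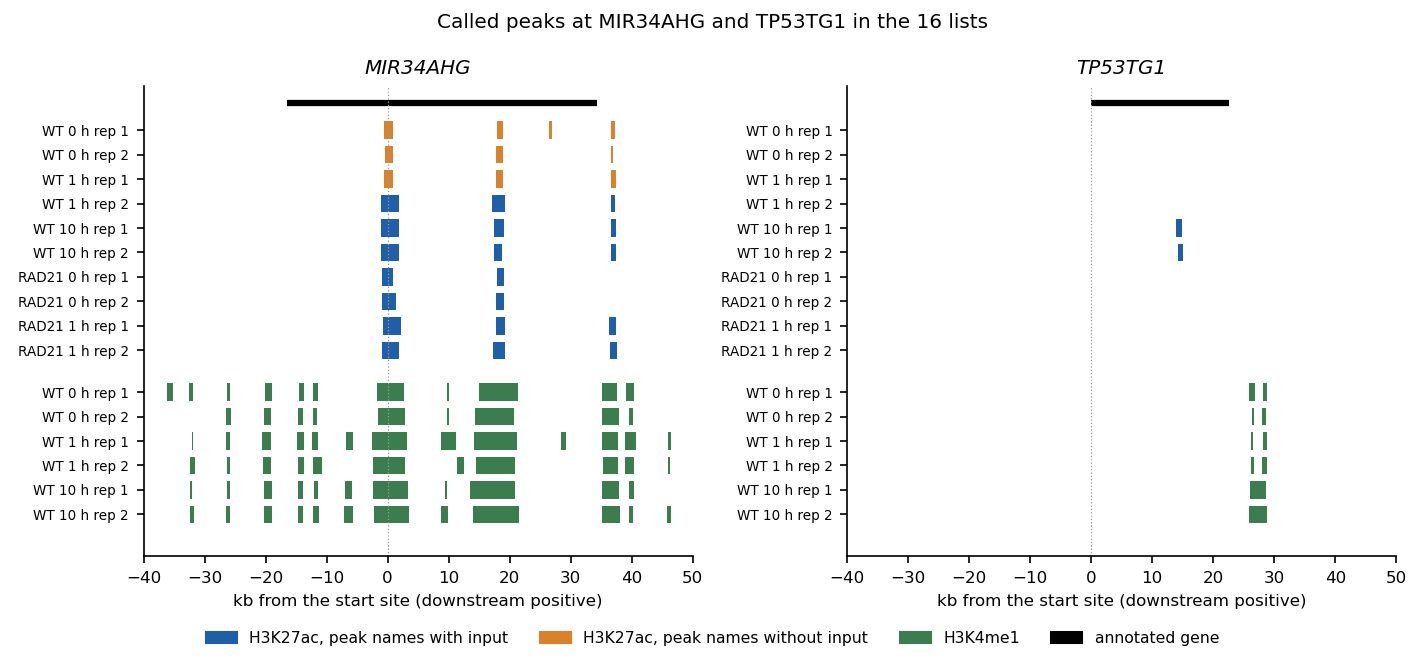
Peaks at MIR34AHG and TP53TG1 in all 16 lists, 1 line per list. The horizontal axis is the distance in kb from the start site, downstream positive, bars are peaks coloured by mark and name form, the black bar is the gene, and the outermost flanks are cropped. The MIR34AHG promoter peak is present in all 10 H3K27ac lists, and the TP53TG1 body peak in the 2 WT lists at 10 h only.

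TP53TG1 (chr7:86952259-86974876, minus strand, 22618 bp) was nearly bare. Neither mark lay over its promoter in any of the 16 lists. One H3K27ac region (chr7:86959867-86960942, 1076 bp), in an intron and over the p53 site printed above, was called in both WT lists at 10 h and in none of the other 8, of which 5 share the name form of the 10 h lists. Its peaks were 1008 and 813 bp long, with folds of 9.01 and 3.02 and −log10 p of 24.5 and 5.84. Among all peaks of their own lists they stood at the percentiles 67.5 and 28.0, so the peak was of middling to low strength. At a −log10 q of at least 5 the peak of the second list was left out, and the region then no longer counted as gained. The summits were 114 and 3 bases from the centre of the p53 site. No H3K4me1 was called there. The only H3K4me1 region of the window (chr7:86946016-86949074, 3059 bp) lies downstream of the gene, with percentiles of 13.6 and 1.8 at 0 h, 9.8 and 34.1 at 1 h, and 30.7 and 16.7 at 10 h. Both 10 h lists were above those at 0 h, by 0.86 (SE 0.42), which did not pass the test (adjusted p = 0.606). Peaks covered 1720 and 953 bp of it at 0 h, 1124 and 1115 bp at 1 h, and 2645 and 2944 bp at 10 h.

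NEAT1 (chr11:65190245-65213011, plus strand, 22767 bp) had strong H3K27ac at its promoter in every list. The region (chr11:65183401-65196296, 12896 bp) stood at the percentiles 94.0 and 93.9 at 0 h, 77.9 and 99.7 at 1 h, and 99.3 and 99.6 at 10 h in WT. The RAD21 line had it at 98.3 and 99.3 at 0 h and at 98.8 and 99.2 at 1 h. The 3 lists without the word input (77.9 to 94.0) lay below the 7 with it (98.3 to 99.7). The change at 10 h was 1.01 (SE 0.41, limma adjusted p = 0.103), and with the name form as a term it was -0.96 (adjusted p = 0.0133). It was 1.01 without the first WT list at 1 h and also without the second. Those 2 lists form the only group with both name forms, so neither fit can part the form from the treatment. At 1 h WT changed by 0.20 (adjusted p = 0.75) and the RAD21 line by 0.049 (adjusted p = 0.941).

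The strongest NEAT1 promoter peak was 2571 and 2486 bp long at 0 h, 2582 and 12348 bp at 1 h, and 11918 and 12182 bp at 10 h in WT. The same peak in the RAD21 line was 10047 and 8192 bp long at 0 h, and 12285 and 12310 bp at 1 h. Its summit lay 146 to 226 bases upstream of the start site in every list, so the point of highest signal stayed beside the start while the peak was longer in the lists with the word input. H3K27ac covered 3.4% and 3.2% of the gene body at 0 h, 3.1% and 33.5% at 1 h, and 35.1% and 39.6% at 10 h. In the RAD21 line it covered 22.0% and 18.8% at 0 h and 36.4% and 39.7% at 1 h, lists of 1 name form that did not overlap. All peaks of the RAD21 lists together also covered more at 1 h (62.6 and 64.1 Mb) than at 0 h (49.1 and 53.2 Mb), and what part this has in the NEAT1 coverage was not tested. H3K4me1 covered 83.6% and 74.7% of the body at 0 h, 78.6% and 63.0% at 1 h, and 79.0% and 100% at 10 h, groups that overlap. Its region over the promoter and body (chr11:65180660-65216944) changed by -0.33 at 10 h (adjusted p = 0.761).

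**Figure D3:**
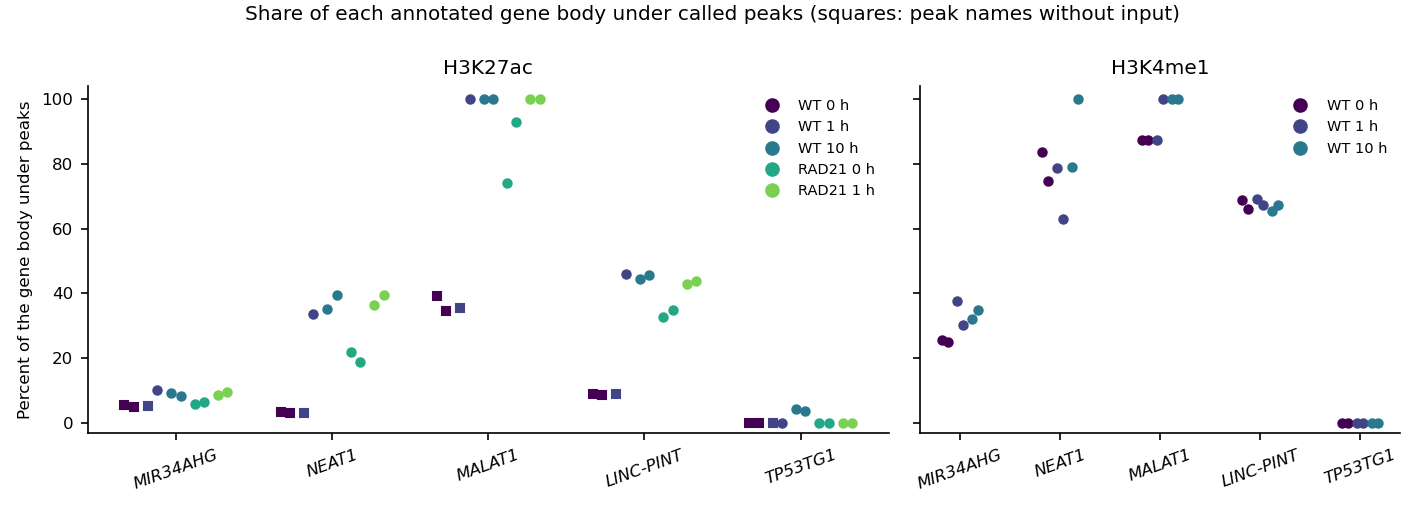
Share of each gene body (vertical axis, percent) under H3K27ac and H3K4me1 peaks in each list. Points are single lists coloured by line and time, with squares for peak names without the word input. At NEAT1, MALAT1 and LINC-PINT the second WT list at 1 h is near the 10 h lists, and the first near those at 0 h.

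The flanks of NEAT1 held 22 of its 31 H3K27ac regions. The promoter region of SLC25A45, a mitochondrial carrier (chr11:65148120-65152402), stood at 72.0 and 64.3 at 0 h, 51.0 and 78.4 at 1 h and 77.8 and 79.9 at 10 h in WT, and at 60.2 and 62.1 at 0 h and 86.1 and 82.2 at 1 h in the RAD21 line. The RAD21 lists at 1 h were above those at 0 h, by 0.72 (SE 0.19, adjusted p = 0.0125). The rise was 0.64 to 0.80 without any 1 RAD21 list and then missed the threshold. Against the WT change of -0.068 (adjusted p = 0.816) it was larger by 0.79 (adjusted p = 0.0478), a call that 8 of the 10 single lists took away when left out (0.68 to 0.89). The difference was 0.41 without the first WT list at 1 h and 1.17 without the second.

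The windows of NEAT1 and MALAT1 share 8 H3K27ac regions, of which 1 is the MALAT1 promoter region. A 12430 bp region between the genes (chr11:65237833-65250262) covers no promoter of a named gene. It stood at 92.2 and 92.2 at 0 h, 94.4 and 98.7 at 1 h, and 96.3 and 97.8 at 10 h in WT. In the RAD21 line it was at 93.6 and 92.8 at 0 h and at 98.8 and 99.1 at 1 h, where the groups did not overlap, and it rose by 0.83 (SE 0.19, adjusted p = 0.0052). Without the second RAD21 list at 1 h that was 0.78 (adjusted p = 0.0533). The change in WT at 1 h was 0.49 (adjusted p = 0.0604), and the lines did not differ in it beyond the test's threshold (0.34, SE 0.26, adjusted p = 0.381). Another region (chr11:65221116-65223838), over the promoter of FAUP4, stood at 67.5 and 66.4 at 0 h, 51.0 and 51.5 at 1 h and 67.5 and 74.7 at 10 h. Its 1 h lists were below the other WT lists, with a fall of 0.41 against 0 h (adjusted p = 0.0188) and a rise of 0.53 from 1 h to 10 h (adjusted p = 0.0043). The fall missed the threshold without the first (adjusted p = 0.104) or the second (adjusted p = 0.082) WT list at 0 h, and the rise was 0.42 (adjusted p = 0.0616) without the second list at 10 h. In the RAD21 line the region was at 46.4 and 48.6 at 0 h and at 50.4 and 47.2 at 1 h, below every WT list. The RAD21 line was lower than WT at 0 h by a change of -0.50 (SE 0.12, adjusted p = 0.0044).

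MALAT1 (chr11:65265111-65275544, plus strand, 10434 bp) lay within 1 long H3K27ac region (chr11:65252394-65278868, 26475 bp), which also covers the promoters of its antisense gene TALAM1 and of LINC02736. Percentiles in WT were 74.1 and 63.8 at 0 h, 69.9 and 98.8 at 1 h, and 91.0 and 93.9 at 10 h. The RAD21 line had 95.1 and 96.2 at 0 h and 91.7 and 88.3 at 1 h. As at NEAT1, the lists without the word input (63.8 to 74.1) were all below those with it (88.3 to 98.8). WT at 10 h changed by 0.95 (SE 0.36, limma adjusted p = 0.0834), and by -0.78 with the name form as a term (adjusted p = 0.0229). It was 0.94 without the first WT list at 1 h or the second, fits that cannot part the form from the treatment. At 1 h WT changed by 0.88 (adjusted p = 0.083) and the RAD21 line by -0.43 (adjusted p = 0.407). Without the first 1 h list the WT change was 1.74, and the 1 h list left in differs in name form from both lists at 0 h. At 0 h the RAD21 line exceeded WT by 1.21 (adjusted p = 0.0183). That difference was -0.51 with the term, 0.17 over promoter windows in place of merged regions, and 1.07 to 1.36 without 1 of its own 4 lists, none of which passed (adjusted p = 0.059 to 0.126).

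H3K27ac covered 39.3% and 34.5% of the MALAT1 body at 0 h, 35.6% and 100% at 1 h, and 100% and 100% at 10 h. Coverage in the RAD21 line was 74.2% and 92.8% at 0 h and 100% and 100% at 1 h. H3K4me1, whose lists share 1 name form, covered 87.5% and 87.3% at 0 h, 87.5% and 100% at 1 h and 100% and 100% at 10 h. The 10 h lists were above those at 0 h for both marks. For H3K27ac the coverage parted by name form. It was 34.5% to 39.3% in the lists without the word input and 74.2% to 100% in those with it. The strength of the H3K4me1 region (chr11:65233273-65279686) changed by -0.52 at 10 h (adjusted p = 0.26, unadjusted p = 0.0057), the opposite sign to its coverage.

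A weak region of the MALAT1 flank (chr11:65317894-65320156) stood at 15.2 and 3.4 at 0 h and at 19.2 and 32.9 at 10 h. It rose by 0.77 (adjusted p = 0.0471), and 7 of the 10 single lists took away the call when left out, the value being 0.36 (adjusted p = 0.372) without the second WT list at 0 h.

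LINC-PINT (chr7:130476023-130794935, minus strand, 318913 bp) held 25 H3K27ac regions, 19 of them in the body alone and 4 over a start site. Its 5′-most promoter shares a region (chr7:130790214-130796464, 6251 bp) with the promoter of MKLN1, which encodes muskelin. Percentiles there were 64.8 and 68.1 at 0 h, 53.9 and 78.4 at 1 h and 75.3 and 76.4 at 10 h in WT. At 0 h those of the RAD21 line were 82.4 and 80.0, and at 1 h 81.2 and 79.1. Lists without the word input (53.9 to 68.1) were below those with it (75.3 to 82.4). The change at 10 h was 0.28 (SE 0.17, limma adjusted p = 0.274), and -0.41 with the name form as a term. At 0 h the RAD21 line was above WT by 0.46 (adjusted p = 0.0488), a difference of -0.23 with that term that also missed the threshold without any of 8 single lists (0.41 to 0.51).

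The longest H3K27ac region of the 5 loci (chr7:130555283-130633283, 78001 bp) covers an inner LINC-PINT promoter and stood at 41.7 and 37.6 at 0 h, 44.5 and 94.3 at 1 h and 92.3 and 92.0 at 10 h in WT. The RAD21 line had 85.5 and 95.8 at 0 h and 84.4 and 83.0 at 1 h. Both WT lists at 1 h lay far apart, each beside the lists of its own name form. The 10 h lists were higher than those at 0 h by 1.68 (SE 0.37, adjusted p = 0.0099). This became -0.039 with the name form as a term, and without 1 of the WT lists at 0 h or 10 h the adjusted p was 0.0635 to 0.0818. The RAD21 line exceeded WT at 0 h by 1.65 (adjusted p = 0.0040), which was -0.066 with that term and 1.31 (adjusted p = 0.0604) without the second RAD21 list at 0 h. At 1 h WT changed by 0.99 (adjusted p = 0.0631). Without the first 1 h list this was 1.83, and the 1 h list left in differs in name form from both lists at 0 h.

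Other regions of the LINC-PINT body moved less. One (chr7:130521279-130534900) stood at 75.6 and 72.7 at 0 h, 74.2 and 83.8 at 1 h and 91.5 and 88.8 at 10 h in WT. Its 10 h lists were the highest of the 6 WT lists, and above the RAD21 lists at 64.9 to 81.0. It rose by 0.65 against 0 h (SE 0.14, adjusted p = 0.0086) and by 0.48 against 1 h (adjusted p = 0.0196). The first was 0.31 with the name form as a term (adjusted p = 0.363), 0.69 (adjusted p = 0.0524) without the first list at 0 h, 0.60 (adjusted p = 0.083) without the second and 0.57 (adjusted p = 0.0798) without the first at 10 h. The second was 0.31 (adjusted p = 0.0643) without the first WT list at 1 h, 0.40 (adjusted p = 0.139) without the first at 10 h and 0.55 (adjusted p = 0.0535) without the second. A 32700 bp region (chr7:130669681-130702380) rose by 0.71 from 1 h to 10 h (adjusted p = 0.026), by 0.24 (adjusted p = 0.166) without that 1 h list, by 1.18 without the second, and by 0.86 (adjusted p = 0.0537) or 0.56 (adjusted p = 0.189) without the first or second at 10 h.

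Within the RAD21 line, where all lists share a name form, 2 LINC-PINT regions moved at 1 h in opposite directions. The region over the promoter of LINC00513 (chr7:130535148-130541556), a noncoding RNA gene inside LINC-PINT, stood at 18.2 and 4.1 at 0 h and at 51.3 and 49.2 at 1 h. In WT the region changed by 0.48 at 1 h (limma adjusted p = 0.13). The difference between the lines in that change was 0.85 (adjusted p = 0.0761), and 1.14 (adjusted p = 0.0024) with the name form as a term. In the RAD21 line the region rose by 1.33 (SE 0.23, adjusted p = 0.0010), and by 1.87 (adjusted p = 0.186) when peaks were ranked by fold. The rise was 0.89 (adjusted p = 0.0144) without the second RAD21 list at 0 h and 1.64 without the first. At 0 h it was lower in the RAD21 line than in WT (41.4 and 38.9) by a change of -1.07 (adjusted p = 0.0027), which was -0.63 (adjusted p = 0.0411) and -1.39 without those lists in turn. The other region (chr7:130638072-130648922) stood at 78.7 and 81.8 at 0 h and at 64.6 and 59.2 at 1 h, and it fell by 0.55 (SE 0.19, adjusted p = 0.0453), a call lost without any of 8 single lists (-0.62 to -0.48). In WT that region was at 58.8 and 61.2 at 0 h and at 59.8 and 84.6 at 1 h, and the change in the RAD21 line was the lower by a difference of -0.93 (adjusted p = 0.0247), which was -0.998 to -0.858 and missed the threshold without any 1 RAD21 list or any 1 WT list at 0 h. It was -1.30 without the first WT list at 1 h and -0.54 without the second. At 0 h the RAD21 line was above WT by 0.60 (adjusted p = 0.0244), 0.54 to 0.65 without 1 of those 4 lists (adjusted p = 0.0779 to 0.132), and -0.17 with the name form as a term.

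H3K27ac covered 9.1% and 8.6% of the LINC-PINT body at 0 h, 9.0% and 46.1% at 1 h, and 44.6% and 45.6% at 10 h. The RAD21 line had 32.7% and 35.0% at 0 h and 42.9% and 43.7% at 1 h. The longest H3K27ac peak of the window was 2598 and 2553 bp at 0 h, 2645 and 55244 bp at 1 h and 55957 and 53779 bp at 10 h in WT. Coverage thus parted by name form in WT, and within the RAD21 line the 1 h lists were the higher ones. H3K4me1 covered 69.0% and 66.1% at 0 h, 69.2% and 67.4% at 1 h, and 65.6% and 67.3% at 10 h, with longest peaks of 99482 to 108730 bp. The H3K4me1 groups overlapped, and the acetylated stretch lay in a body that was under H3K4me1 at all 3 times.

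None of the 22 H3K27ac regions tested lay in the TP53TG1 window. Over the 22, WT at 10 h against 0 h had 4 higher calls and 0 lower. Of all regions, 9.7% were called higher and 8.56% lower. The median change was 0.46 at the loci and -0.036 over all regions, and 16 of 22 were higher beside 46.1% of all. With the name form as a term 1 was higher (the MIR34AHG promoter) and 2 lower (the NEAT1 and MALAT1 promoter regions), beside 2.06% and 2.34% of all, the median became -0.035, and 16 of 22 changes switched sign. Ranges did not overlap between the name forms in 6 of the 22 regions, 5 higher and 1 lower in lists with the word input, beside 6.40% and 5.49% of all regions. The 5 included the promoter regions of NEAT1 and MALAT1 and both LINC-PINT promoter regions tested.

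At 1 h against 0 h in WT, 0 of the 22 were called higher and 2 lower, beside 14.3% and 14.8% of all regions. From 1 h to 10 h, 5 were called higher and 0 lower, beside 15.8% and 16.5%. In the RAD21 line 4 were called higher and 1 lower at 1 h, beside 14.4% and 13.4%, and in the test of the difference between the lines in that change 2 were higher and 1 lower, beside 11.7% and 11.0%. The RAD21 line against WT had 4 higher and 3 lower at 0 h, beside 16.8% and 20.7%. With the name form as a term those became 0 higher and 9 lower, beside 11.8% and 13.2%, the median change went from 0.032 to -0.42, and 12 of the 22 switched sign. At 1 h the lines differed in 0 and 0, beside 5.68% and 6.15%, while 6 of the 22 had an unadjusted p under 0.05, beside 28.9% of all. With the name form as a term 1 was higher and 4 lower there, beside 10.1% and 9.72%. WT comparisons share their 0 h or 1 h lists. Ranking peaks by fold left 0 of these calls at 1 h in either line.

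**Figure D4:**
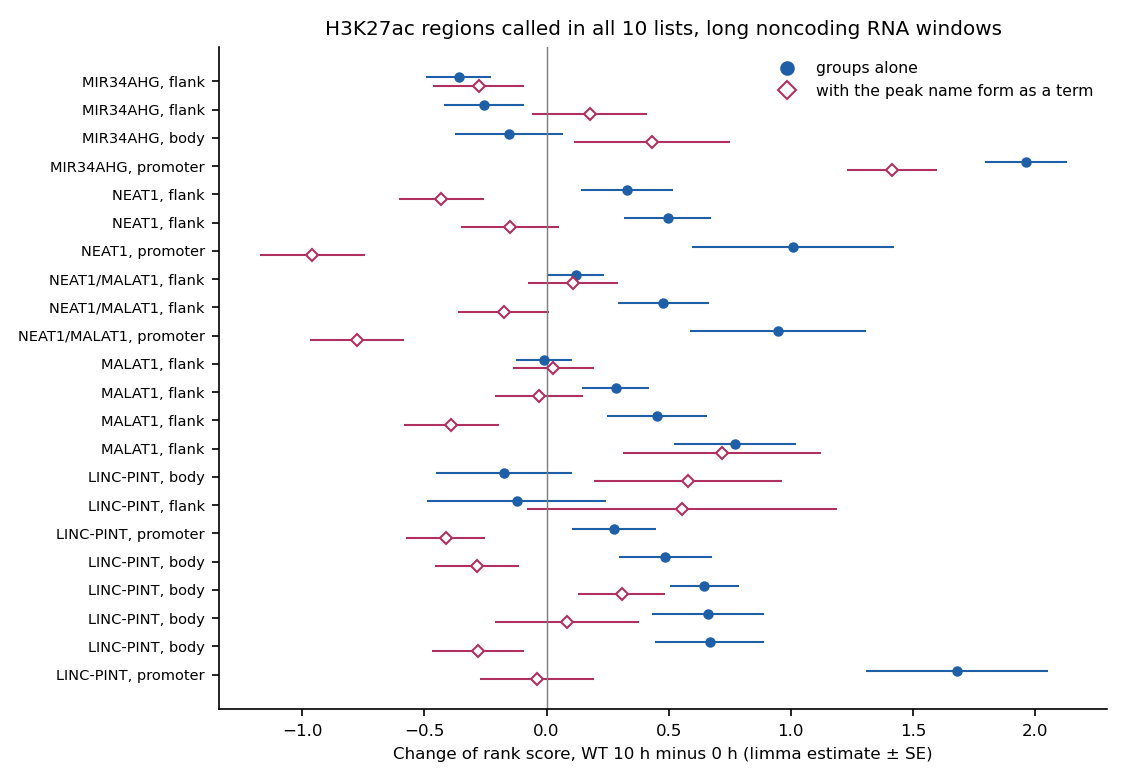
Change in H3K27ac normal score (horizontal axis, SD units) in WT at 10 h against 0 h for the 22 regions tested, fitted without and with the peak name form as a term. Points are estimates and lines are standard errors. The MIR34AHG promoter is at 1.96 without the term and at 1.41 with it, while 16 of the 22 regions switch sign.

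No H3K4me1 region of the 36 tested passed limma's test in any WT comparison. At 1 h against 0 h 0 were called, beside 0.291% of all regions higher and 0.304% lower. At 10 h against 0 h 0 were called, beside 0.615% and 0.0231%, and at 10 h against 1 h 0, beside 1.92% and 1.13%. Those with an unadjusted p under 0.05 numbered 8, 2 and 5 of 36, beside 15.5%, 8.66% and 18.8% of all regions. Median changes at the loci were 0.027, 0.051 and 0.084, and -0.0032, -0.018 and -0.0095 over all regions.

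Presence was compared as regions called in both later lists and in neither earlier one (gained) or the reverse (lost). In WT at 10 h, 13 of the 71 H3K27ac regions were gained and 0 lost, beside 11.4% and 1.9% of all regions. They were 5 at NEAT1, 4 at LINC-PINT, 2 shared by NEAT1 and MALAT1, 1 at MALAT1 and 1 at TP53TG1. Of the 13, 10 were already called in the second WT list at 1 h, which shares the name form of the 10 h lists, and 2 were called in no list but those at 10 h. Those were the TP53TG1 region over the p53 site and a region downstream of NEAT1 (chr11:65215353-65216384, 1032 bp, folds of 5.54 and 3.78). At 1 h, 2 regions were gained and 0 lost in WT, beside 1.51% and 1.32%. In the RAD21 line 5 were gained at 1 h and 0 lost, beside 4.61% and 2.87%. They were 3 at NEAT1, 1 at LINC-PINT (chr7:130753548-130754719) and 1 in the MIR34AHG flank (chr1:9204909-9206229), which was called in all 6 WT lists too. For H3K4me1, 3 of 61 regions were gained and 0 lost at 1 h, beside 3.3% and 1.75%, and 2 were gained and 0 lost at 10 h, beside 2.63% and 2.29%.

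Regions away from promoters with both marks rose in number with time at 3 loci. NEAT1 had 1 active enhancer at 0 h, 2 at 1 h and 8 at 10 h, MALAT1 had 2, 3 and 5, and LINC-PINT had 6, 7 and 9, where a region shared by the NEAT1 and MALAT1 windows counts for both. Counted once, all 5 windows held 10, 12 and 21, and the whole genome 12012, 11718 and 15324 by the same rule. TP53TG1 had 0 at each time, since its 10 h H3K27ac region lacked H3K4me1. A region had to be called in both lists of a time, and at 0 h both H3K27ac lists lack the word input, so that these counts and the name form cannot be told apart.

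Other p53-linked genes are given for scale in WT at 10 h against 0 h, where 9.7% of all regions were called higher and 8.56% lower. Of 26 promoter regions of coding p53 targets, 6 were called higher and 0 lower, with a median of 0.15. They included PHLDA3, an AKT inhibitor (1.26, SE 0.14, limma adjusted p = 0.000225), and AEN, an apoptosis-enhancing nuclease (1.45, adjusted p = 0.0011). Of 15 promoter regions of other noncoding RNA genes linked to p53 or hosting microRNAs, 1 was called higher, that of MIR22HG (0.61, adjusted p = 0.021), and 0 lower, with a median of -0.14. Of 15 of genes for paraspeckle and speckle proteins, partners of NEAT1 and MALAT1, 0 were called higher and 1 lower, that of NONO (-0.34, adjusted p = 0.0389), with a median of -0.020. The change at the MIR34AHG promoter (1.96) was above each of those named in this fit, where the 2 times also differ in name form. With the form as a term it was 1.41, and the other genes were not compared in that setting.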

How the data were processed

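H3K27ac and H3K4me1 ChIP-seq peak lists of 16 libraries were analysed. The 10 input libraries were not analysed here. Per the study and its processing notes, the authors trimmed reads (Trim Galore 0.6.6), mapped them to GRCh37.p13 (Bowtie2 2.3.2) and called peaks per library against an input (MACS2 2.2.7.1, narrow for H3K27ac, broad for H3K4me1). Fold enrichment (a ratio), −log10 p-values and −log10 q-values are as deposited by the authors, with a lowest −log10 q of 1.30 for H3K27ac and 1.01 for H3K4me1. The deposited score column was not used. Peak strength depends on each library's depth and control, so peaks were compared by rank within a list.

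Peaks of a mark overlapping by at least 1 bp were merged. Promoters ran from 1000 bp before to 200 bp after a start site (GENCODE 44 mapped to GRCh37). Genes with only an Ensembl identifier for a name were left out of the promoters of other genes. Active enhancers are therefore regions off the promoters of named genes. Regions called in every list were ranked by −log10 p, turned into normal scores and fitted with limma 3.58.1 (R 4.3.3; lmFit, eBayes with a trend, Benjamini-Hochberg adjusted p under 0.05), 1 fit per mark without covariates, and the code was tested on simulated data. Group and replicate came from the labels, which mark replicates as BR with a number, and the study calls them biological replicates. Neither says whether they were separate cultures, so p-values measure only the spread between these lists. With 2 lists against 2 an exact permutation test cannot go below 0.333. Depth was not weighed, and no interval was set.

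The genes, gene lists and tests were chosen with earlier results of these data known. The named regions were each promoter region and, per window and mark, up to 4 with the smallest adjusted p among those called, except for a region of the MALAT1 flank that is counted but not reported here. Of gained or lost regions, up to 3 per window with the most covered bases could be named, and the regions chr11:65215353-65216384 and chr1:9223163-9225358 were named after their values were seen. For WT at 0 h and 1 h the peak totals of the deposited H3K27ac lists differ from those the study tabulates. The reason was not established. Alternatives were the ranking value, the minimum number of lists, the name form as a term, a replicate block, presence thresholds, a 25 kb flank and leaving out each list. Ranking promoter windows was added after seeing the data.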

Additional observations from a re-analysis of the deposited data

Results flagged for a closer look

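At 2 H3K27ac regions named here the change after 1 h of Nutlin-3a differed between the RAD21 line and WT in the interaction term of the limma fit. At the SLC25A45 promoter in the NEAT1 flank (chr11:65148120-65152402) the change was larger in the RAD21 line by 0.79 (SE 0.27, adjusted p = 0.0478). In the LINC-PINT body (chr7:130638072-130648922) it was lower by a difference of -0.93 (SE 0.27, adjusted p = 0.0247). With the peak name form as a term, these differences were 1.17 and -0.54. Of the 22 regions tested, 2 were called higher and 1 lower in the interaction, beside 11.7% and 11.0% of all regions. Neither of the calls named here held when peaks were ranked by fold, and each was lost without most single lists. The 2 WT lists at 1 h differ in name form.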

How the results depend on the processing

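The rise of the MIR34AHG promoter at 10 h kept its direction and call in every setting run: 2.24 when ranked by fold, 2.22 over promoter windows and 1.41 with the peak name form as a term. Single-region results kept direction and call in 325 of the leave-one-out values, while 70 lost the call, 15 gained it and 10 reversed.

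Counts of called regions moved as follows. Where no share of all regions stands beside a count of rank calls, it is given above or was not counted. Ranking by fold gave 0 in WT at 1 h, 1 from 1 h to 10 h, 0 for the RAD21 line, 0 for the interaction and 4 for RAD21 against WT at 0 h. The name form as a term gave 7 in WT at 1 h (0 higher and 7 lower, beside 2995 and 3022 of all 18757 regions), 10 for the RAD21 line (6 and 4, beside 22.7% and 19.1%), 9 for the interaction (8 and 1, beside 17.3% and 14.9%), 5 between lines at 1 h (1 and 4) and 9 at 0 h (0 and 9). Regions called in at least 2 lists gave 2 between lines at 1 h and, for H3K4me1, 1 from 1 h to 10 h. At a −log10 q of at least 5, gained H3K27ac regions numbered 1 in WT at 1 h and 4 at 10 h (that of TP53TG1 dropped out), with 0 lost. Of all 87608 regions, 956 and 3560 were gained, and 809 and 1207 lost. For H3K4me1 at 10 h 0 were gained or lost, beside 1092 and 1300 of all 110276. With peaks over at least 50% of a region, 1 was gained in WT at 1 h and 27 at 10 h, with 0 lost. Of all regions, 2297 and 14352 were gained, and 1059 and 1508 lost. H3K4me1 at 10 h then had 1 gained and 0 lost, beside 3540 and 3675. The RAD21 line had 10 gained and 1 lost, beside 5881 and 1793.

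Leaving out 1 list, counts of calls ran from 0 to 18 in WT at 1 h, 1 to 16 at 10 h, 2 to 14 from 1 h to 10 h, 2 to 10 in the RAD21 line, 1 to 11 for the interaction, 3 to 10 between lines at 0 h and 0 to 10 at 1 h, and stayed at 0 for H3K4me1. The shares of all regions called in these settings were not counted, so the ranges are not read as particular to the loci. Gained or lost regions ran from 2 to 24 in WT at 1 h, 14 to 19 at 10 h, 8 to 14 in the RAD21 line, and 5 to 10 and 4 to 5 for H3K4me1. In the settings that gave 24 and 19, 11541 and 16798 of all 87608 H3K27ac regions were gained, and 2207 and 2346 lost. In the RAD21 setting that gave 14, 8054 were gained and 3213 lost. Of all 110276 H3K4me1 regions, 7972 were gained and 4789 lost in the 1 h setting that gave 10. In the 10 h setting that gave 5, 4880 were gained and 4965 lost.

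Reversed with the name form as a term were, in WT at 1 h, MIR34AHG (-0.0026), the 5′-most LINC-PINT promoter (-0.33) and NEAT1 (-0.78); in WT at 10 h, the inner (-0.039) and 5′-most (-0.41) LINC-PINT promoters, NEAT1 (-0.96) and MALAT1 (-0.78); and for RAD21 against WT at 0 h, the same LINC-PINT promoters (-0.066 and -0.23), the LINC-PINT body region chr7:130638072-130648922 (-0.17) and MALAT1 (-0.51). Without 1 list, the 1 h change in WT ran from -0.0024 to 0.54 at MIR34AHG, -0.33 to 0.36 at LINC-PINT and -0.78 to 1.18 at NEAT1, the 1 h change of the RAD21 line from -0.084 to 0.0056 at LINC-PINT and -0.12 to 0.22 at NEAT1, and the H3K4me1 change at 10 h from -0.17 to 0.31 at LINC-PINT and -0.79 to 0.14 at NEAT1. Over promoter windows, the RAD21 change at MALAT1 was 0.72. The causes were not tested.

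Same-numbered lists did not deviate together in peak rank (correlations of -0.050 to 0.045). That check sees only ranks, so it cannot tell whether same-numbered lists came from a shared culture. The WT H3K27ac lists at 1 h also differ from each other in name form, which enters their deviations. A replicate block gave 3 calls in WT at 1 h, 4 at 10 h, 5 from 1 h to 10 h, 5 in the RAD21 line, 3 for the interaction, 7 between lines at 0 h, 0 at 1 h, and 0 for H3K4me1. Depth was not weighed, since the lists give no reads and the study's library statistics were not used for this.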
